A study of Mus musculus with 2 samples.

Results

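Mir221 and Mir222 are neighbouring miRNA genes on the mouse X chromosome. They were found by matching the identifiers of the count tables to an annotation of the same genome build, and these 2 genes are 2 of the 1973 genes listed. The study profiled small RNA of skeletal muscle tissue, taken on the day of birth (age 0 day) from mice of strain B6NCrl. The labels describe 2 libraries from 2 pups of 1 litter, called here replicate 1 (pup 1) and replicate 2 (pup 2), with no treatment or genetic alteration named and the sex of the pups not collected. The labels also give both libraries the same donor code, and they do not say which muscle was taken. Both libraries belong to 1 group, so the data allow a description of levels and a comparison of the 2 libraries, but no contrast between conditions.

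The miRNAs of this pair are known from proliferating cells. In myoblasts, the dividing precursors of muscle fibres, they are abundant during growth and decline as the cells leave the cell cycle and fuse. Their best known target is the mRNA of Cdkn1b, which encodes the cell cycle inhibitor p27, and they are also known in endothelial and vascular smooth muscle cells. Kit, the receptor of stem cell factor, is another known target.

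The mature sequences are shown because the shared seed, bases 2 to 8 in capitals, is what makes the 2 genes a family. They are RefSeq sequences on build GRCm38.p6, written 5′ to 3′, and both genes were matched in that table.
mmu-miR-221-3p: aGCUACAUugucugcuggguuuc
mmu-miR-222-3p: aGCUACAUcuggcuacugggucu
mmu-miR-221-5p: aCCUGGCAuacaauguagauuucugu
The 3p miRNAs are identical over their first 8 bases, and position by position without gaps they share 11 of 23 bases. The 5p arm of Mir221 carries a different seed. The table lists no mature 5p miRNA for Mir222, so its sequence and seed are not shown. Of 1738 mature mouse miRNAs in the table, 3 carry the seed of the 3p arms. The third is mmu-miR-1928, from chromosome 1.
mmu-miR-1928: aGCUACAUugccagcuc
Its gene Mir1928 was among the listed genes and had 0 counts in both libraries, which allows up to 3 counts, or 0.799 CPM (counts scaled to 1000000 own-strand counts in miRNA genes) in replicate 1 and 0.584 CPM in replicate 2. Among listed genes with a mature sequence in the table, the seed was therefore found with counts only for Mir221 and Mir222. Listed genes without a mature sequence there were not searched for the seed.

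The hairpins, with the 3p arm in capitals, are shown because the counts were made per hairpin gene and do not separate its arms.
Mir221 hairpin: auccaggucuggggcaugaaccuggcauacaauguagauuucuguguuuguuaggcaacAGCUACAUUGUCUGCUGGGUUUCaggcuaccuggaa
Mir222 hairpin: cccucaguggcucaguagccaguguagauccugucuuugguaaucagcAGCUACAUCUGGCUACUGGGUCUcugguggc
Mir221 (ENSMUSG00000065422) lies at chrX:19146294-19146388 and Mir222 (ENSMUSG00000065471) at chrX:19146893-19146971, both on the minus strand of build mm10, which is GRCm38. Mir222 comes first in the direction of transcription, and 504 bases separate the hairpins. Neither hairpin overlapped another gene of GENCODE M21, so both are intergenic there. The next gene upstream on the same strand, the non-coding Gm14636, ends 10009 bases from Mir222.

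**Figure D1:**
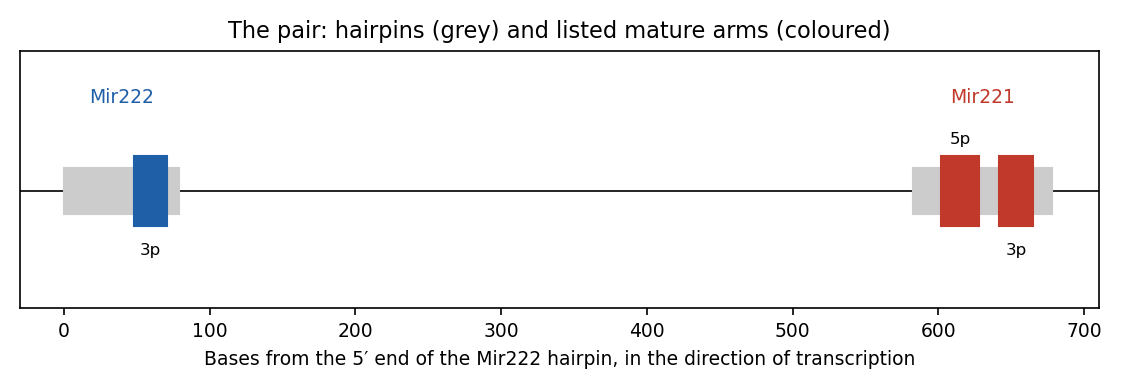
Map of the pair. The x axis is the distance in bases from the 5′ end of the Mir222 hairpin in the direction of transcription, grey boxes are hairpins and coloured boxes are the mature arms listed by RefSeq. The 504 bases between the hairpins hold no other listed miRNA gene.

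The 2 hairpins have only short runs of sequence in common. The longest run of identical bases shared by the 2 hairpins was 9, and the longest run shared with any of the other hairpins in the table, on either strand, was 13 for Mir221 and 12 for Mir222. In 141767 GENCODE M21 transcripts, a stretch of 18 bases of either 3p miRNA was found, on either strand, in 2 transcripts and in 0 outside the pair. Both sequences fold into a hairpin in RNAfold. The minimum free energy was -42.8 kcal/mol for the 95 bases of Mir221 and -40.7 kcal/mol for the 79 bases of Mir222. In these folds 21 of 23 bases of miR-221-3p and 19 of 23 bases of miR-222-3p were paired.

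Mir221 was present at a low to moderate level and Mir222 lay below it in each library. Mir221 had 330 counts in replicate 1, or 87.9 CPM (95% interval 78.7 to 97.9), and 236 counts in replicate 2, or 46.0 CPM (40.3 to 52.2). Mir222 had 132 counts in replicate 1, or 35.2 CPM (29.4 to 41.7), and 127 counts in replicate 2, or 24.7 CPM (20.6 to 29.4). The values of the 2 genes did not overlap, since the lowest Mir221 value was above the highest Mir222 value. Intervals are exact Clopper-Pearson intervals and cover counting error only. The tables carry no molecular identifiers, so repeated reads of the same molecule cannot be told apart. The means were 66.9 ± 29.6 CPM (SD, n = 2) for Mir221 and 29.9 ± 7.37 CPM (SD, n = 2) for Mir222, and the pair together had 96.9 ± 37.0 CPM (SD, n = 2). In this bulk tissue, fewer cells of a type and less RNA per cell cannot be told apart.

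**Figure D2:**
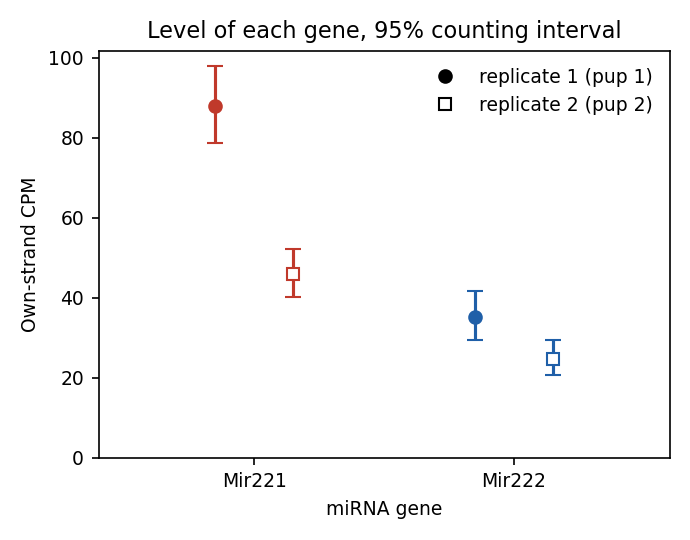
Level of Mir221 and Mir222 in CPM of own-strand counts. Filled circles are replicate 1, open squares are replicate 2 and bars are 95% counting intervals; the Mir221 values of 87.9 and 46.0 lie above both Mir222 values, and the Mir222 intervals meet at 29.4.

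Most genes with at least 10 counts in both libraries were more abundant than the pair. Mir221 ranked 187 in replicate 1 and 200 in replicate 2, and Mir222 ranked 219 and 224, among all 1973 listed genes. At least 10 counts in both libraries were found for 311 genes, and by mean CPM 36.3% of these were below Mir221 and 29.3% below Mir222. Mir206, the skeletal muscle miRNA that was highest in the tables, had 83323 ± 5480 CPM (SD, n = 2), which was 1245 times the mean of Mir221 and 2782 times that of Mir222. The order around the pair is loose. The values of 35 other genes overlapped the range of Mir221 and those of 29 other genes the range of Mir222, while 174 and 206 genes were higher than them in both libraries.

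**Figure D3:**
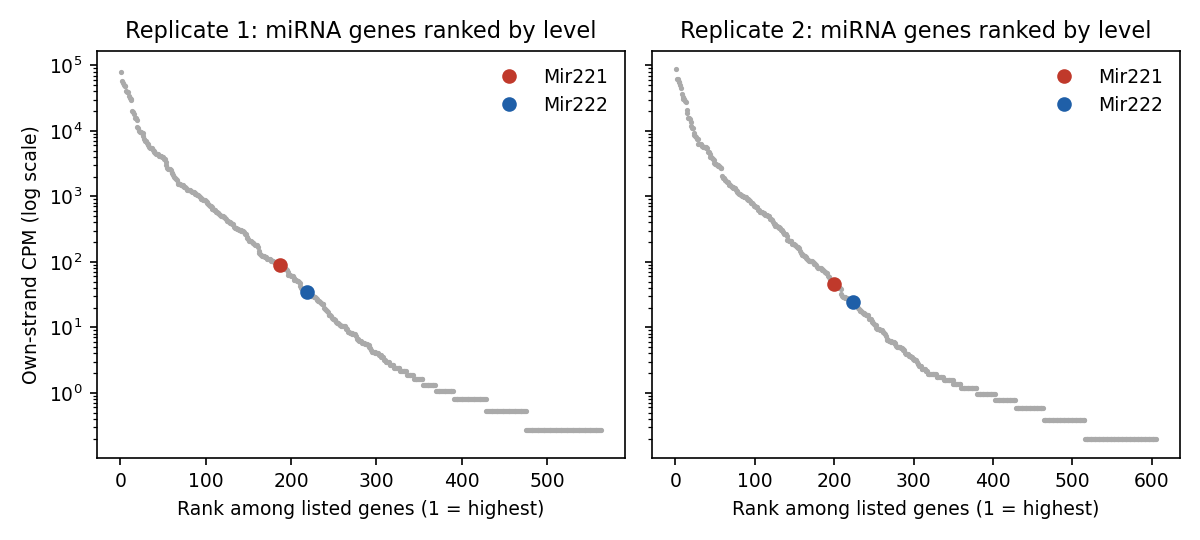
All miRNA genes with at least 1 count, ranked by level in each library. The y axis is own-strand CPM on a log scale and each grey point is a gene; Mir221 (red) sits at rank 187 and 200 and Mir222 (blue) at 219 and 224.

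The library of pup 1 held more Mir221 than that of pup 2 beyond counting error, whereas the difference in Mir222 was smaller and missed the threshold. With libraries scaled by edgeR's TMM factors, the log2 ratio of replicate 2 over replicate 1 was -0.80 for Mir221 (95% counting interval -1.05 to -0.56), a level 1.74-fold higher in replicate 1. The exact two-sided binomial test gave an adjusted p of 2.027e-10 (Benjamini-Hochberg over 373 genes). For Mir222 the log2 ratio was -0.38 (-0.74 to -0.013), or 1.30-fold higher in replicate 1, with an adjusted p of 0.0769 in the same exact test. Scaled by total counts instead, the Mir222 ratio was -0.51 with an adjusted p of 0.0124, so its call depends on the scaling. The call of 1 member of 2 has to be read against the background. Of the genes tested, 49.1% passed in either direction and 23.3% passed as lower and 25.7% as higher in replicate 2, so a pass is common between these libraries. An absolute ratio larger than that of Mir221 was found for 12.3% of the tested genes, and 38.6% exceeded Mir222. Neither gene reached 2-fold, which 5.09% of tested genes did while passing the threshold. The test compares 2 libraries and not conditions, and it does not include differences between pups or dissections. The biological coefficient of variation between the libraries was 0.319 over the tested genes.

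**Figure D4:**
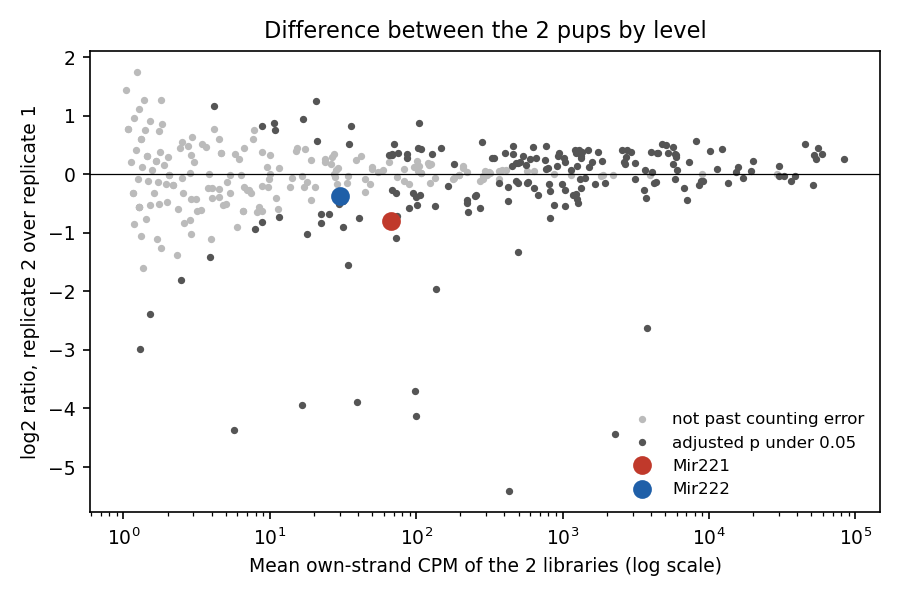
The log2 ratio of replicate 2 over replicate 1 (y axis) against mean own-strand CPM (x axis, log scale) for 373 tested genes. Dark points passed an adjusted p of 0.05; Mir221 (red, -0.80) and Mir222 (blue, -0.38) lie below 0 inside the main cloud, above the 7 epithelial genes at -3.71 or lower.

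Mir222 was the minor member of the pair in both pups. Mir222 made up 28.6% of the counts of the pair in replicate 1 (95% Clopper-Pearson interval 24.5 to 32.9, 132 of 462 counts) and 35.0% in replicate 2 (30.1 to 40.1, 127 of 363 counts). The intervals overlap, and Fisher's exact test (two-sided) of this difference gave p = 0.0499, just under the threshold, with counting error alone considered. This is also the test of whether Mir221 and Mir222 differed unequally between the pups. Mir221 exceeded Mir222 by 2.50-fold in replicate 1 (2.04 to 3.08) and by 1.86-fold in replicate 2 (1.49 to 2.32), in counts per hairpin gene.

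Among pairs of neighbouring miRNA genes Mir221 and Mir222 were rather evenly matched. Of 19 such pairs chosen, 14 had at least 10 counts for each gene in each library. The log2 ratio of Mir222 to Mir221 counts was -1.32 in replicate 1 and -0.89 in replicate 2, a mean size of 1.11. By the mean of both libraries, 1 of the 13 other pairs was more even, Mir182 and Mir183 of the sensory cluster, at 1.12 and 0.25. The red cell genes Mir144 and Mir451a stood at -2.06 and -1.14, and the X-linked Mir98 and Mirlet7f-2 of the let-7 family at 1.16 and 1.31. In Mir206 and Mir133b, the muscle pair, the first gene led by 6.87 and 6.66. The median size over the 13 pairs was 4.14, from 0.69 to 8.60. Between the pups the pair's log2 ratio moved by 0.43, more than in 10 of the 13 others, whose median was 0.20, although many of those rest on far more counts. Some members, such as Mirlet7f-2, Mirlet7c-1, Mir199a-2 and the Mir23 and Mir27 genes, share a stretch of 20 bases with another hairpin. Reads that map to several places were not counted, so the counts of these members can be too low. The sizes of their ratios are thus uncertain, including the largest, 8.60 for Mir99a and Mirlet7c-1. Mir143 and Mir145a were not checked for such copies. That check also lacked Mir125b-2, Mir133a-1 and Mir133a-2, so Mir125b-1 and Mir133b were not compared with them.

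**Figure D5:**
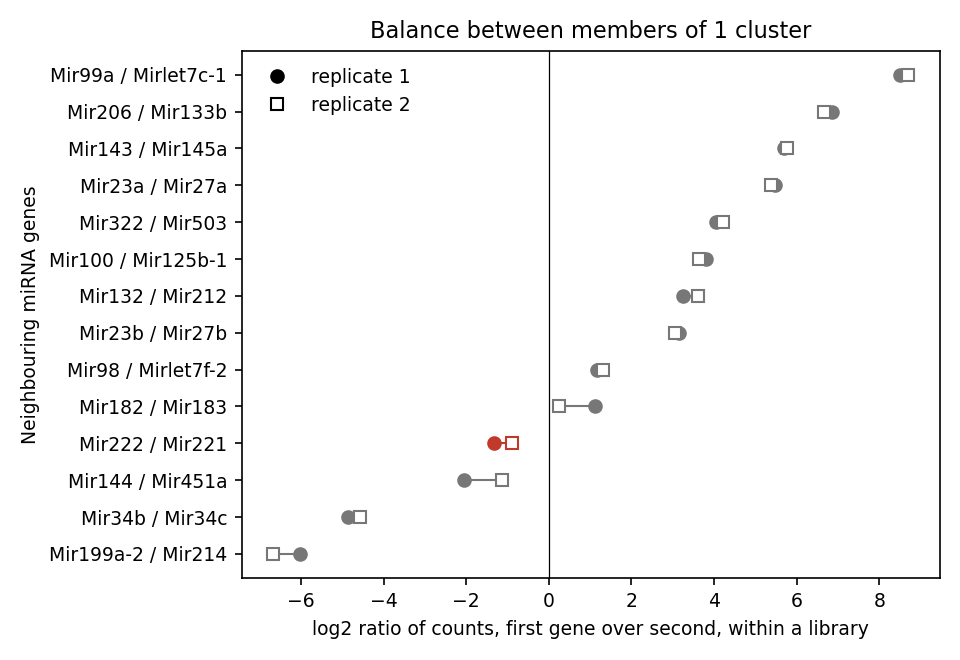
Log2 ratio of counts between neighbouring miRNA genes, first over second, within each library. Filled circles are replicate 1, open squares replicate 2 and the red row is Mir222 over Mir221, at -1.32 and -0.89. By the mean of both libraries, only Mir182 over Mir183 lies nearer to 0 among the 13 other rows.

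Other miRNA genes linked to proliferating or undifferentiated myoblasts were mostly more abundant than the pair. Of 12 such genes, 9 had a higher mean than both members and 2 a lower mean than both. Mir17, the leading gene of the growth-promoting Mir17 to Mir92 cluster, had 4366 CPM in replicate 1 and 2995 CPM in replicate 2. Its cluster neighbours Mir20a (1534 and 992 CPM) and Mir18 (1207 and 1090 CPM) followed. Beyond counting error 5 of the 12 were lower in replicate 2, 1 was higher and 6 did not pass, with 0 at 2-fold, where 23.3% of all tested genes were lower and 25.7% higher. Their median log2 ratio was -0.19 against 0.0059 over all tested genes. Mir92-1 and Mir19b-1 of this list share a stretch of 20 bases with another hairpin, and their counts are uncertain. Mir125b-2 was not checked for such copies, and Mir125b-1 was therefore not compared with it. The lowest log2 ratio in that list was -0.55, so Mir221 at -0.80 lay below all 12 of them, and Mir222 lay below 8 and above 4.

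Genes linked to cell cycle exit and muscle differentiation ranged from far above the pair to below it. Of 22 genes in that list, 20 had values and 19 were tested (Mir1a-2 and Mir378a were not analysed here), of which 9 were higher in replicate 2, 2 were lower and 8 did not pass, with 0 at 2-fold. Over all tested genes 25.7% were higher and 23.3% lower. The list's median log2 ratio was 0.22 against 0.0059 over all tested genes, and the difference from the proliferation list was not tested. Of the higher genes, Mir27b, Mir181a-1, Mir181a-2 and Mir29c share a stretch of 20 bases with another hairpin, so their counts are uncertain. Mir486 was not checked for such copies, and Mir133b was not compared with the Mir133a genes, which that check lacked. Mir206 had 79447 and 87198 CPM. Mir322, a promoter of myoblast cell cycle exit, had 30431 and 27925 CPM, and Mir26b, of a family linked to differentiation, had 18266 and 15976 CPM. Mean levels of 13 of the 20 were higher than both members of the pair and those of 7 were lower than both. The lower ones include Mir1a-1 (6.39 and 8.96 CPM) and Mir133a-1 (5.33 and 6.23 CPM), whose mature miRNAs are also made from a further locus and whose counts are therefore uncertain. The others are Mir133a-2, Mir26a-1, Mir26a-2, Mir29b-1 and Mir29b-2. The Mir26a and Mir29b genes share a stretch of 20 bases with another hairpin, and Mir133a-2 was not checked for such copies. The counts of all 7 lower genes are thus uncertain.

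Markers of other cell types differed between the libraries as well, and their part in the difference of Mir221 was not tested. Skeletal muscle genes of the differentiation list had log2 ratios above 0. Mir206 (0.27), Mir133b (0.48), Mir499 (0.26), Mir208b (0.15) and Mir486 (0.51) passed as higher in replicate 2. Mir1a-1 (0.60) and Mir133a-1 (0.35) did not pass. Their relation to Mir221 was not tested either. The counts that follow stand against 23.3% lower and 25.7% higher in replicate 2 over all tested genes. All 7 epithelial and skin genes were higher in replicate 1, with a summed level of 5688 CPM against 229.6 CPM in replicate 2. They were led by Mir203 (4356 and 183 CPM) and Mir205 (843 and 17.9 CPM). The cartilage-linked Mir140 had 6539 and 966 CPM, a log2 ratio of -2.63. It was in no list and is named because of these values. Mir455, also linked to cartilage and in no list, differed far less, with 1377 and 986 CPM and a log2 ratio of -0.35. Of 7 tested smooth muscle and fibroblast genes, 4 were lower (23.3% of all tested) and 1 was higher (25.7%). Their summed level was 45695 and 42101 CPM, led by Mir143 (29992 and 30185 CPM) and Mir21a (8474 and 5682 CPM). Of the lower ones, Mir199b and Mir199a-2 share a stretch of 20 bases with another hairpin, so their counts are uncertain. Mir143 was not checked for such copies. The endothelial Mir126a had 40785 and 36558 CPM. Its TMM-scaled log2 ratio of -0.026 was small but passed as lower in replicate 2 (adjusted p = 4.11e-07, exact binomial test). Mir126b was not analysed here. Blood cell genes summed to 1062 and 758 CPM, led by Mir223 (505 and 335 CPM) and Mir451a (336 and 206 CPM), with 2 of 6 lower and 1 higher, so 3 of 6 passed where 49.1% of all tested genes did. Neural genes summed to 1404 and 1610 CPM, led by Mir128-1 (557 and 701 CPM) and Mir128-2 (399 and 512 CPM), with 2 of 6 tested lower and 2 higher. The Mir124a genes and Mir9-2, 4 of 11, were at 0 in both libraries. Mir128-1, Mir128-2, Mir138-1, Mir138-2, Mir219a-1, Mir9-2 and Mir9-3 share a stretch of 20 bases with another hairpin, so their counts, zeros included, are uncertain. Mir138-1 and Mir138-2 are the 2 neural genes that were lower in replicate 2. The Mir124a genes were not checked for such copies, so their zeros are uncertain as well. The level of the pair in replicate 2, where the epithelial genes were low, was 70.7 CPM (63.6 to 78.4), and in replicate 1 it was 123 CPM (112 to 135).

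The genes most like each member in level were taken by the distance of log2(CPM + 1) over the 2 libraries. For Mir221 the nearest were Mir183 (102 and 43.6 CPM, distance 0.23), Mir199a-2 (95.1 and 53.2 CPM, 0.23), Mir669o (78.0 and 58.8 CPM, 0.39), Mir1981 (83.6 and 61.2 CPM, 0.41) and Mir669l (78.0 and 69.1 CPM, 0.60). For Mir222 they were Mir194-2 (36.0 and 26.3 CPM, 0.09), Mir669c (36.2 and 23.2 CPM, 0.10), the X-linked Mir20b (38.1 and 25.3 CPM, 0.12), Mir137 (31.7 and 25.9 CPM, 0.16) and Mir193a (29.6 and 26.1 CPM, 0.25). Likeness here rests on 2 libraries and is a match of level. Mir194-2 and Mir199a-2 share a stretch of 20 bases with another hairpin, so their counts are uncertain. Mir669o, Mir669l and Mir669c were not checked for such copies.

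The mRNAs were not measured in these libraries, but the shared seed can be placed on known targets. The letters searched were ATGTAGC, the reverse complement of the seed, on the transcript strand of the longest 3′ UTR of each gene in GENCODE M21. Each line gives up to 30 bases around a match, with the match in capitals.
Cdkn1b: aaaagcattggATGTAGCattgc
Cdkn1c: acctttcgttcATGTAGCaggaa
Kit, first match: atgggagatatATGTAGCaagac
Kit, second match: taaatattgaaATGTAGCaataa
Timp3: taaaatcatttATGTAGCtgaga
Cdkn1b held 1 match in a 3′ UTR of 3439 bases (chr6:134924420-134924442, plus strand). The letters occurred in 24.5% of the 2106 UTRs at least as long, cut to the same length. Cdkn1c, which encodes the related inhibitor p57, held 1 match in 688 bases (chr7:143458921-143458943, minus strand), where 4.49% of 12589 UTRs did. Kit held 2 matches in 2177 bases (chr5:75654981-75655003 and chr5:75656512-75656534, plus strand), where 15.8% of 4788 UTRs held at least 1. Timp3, an inhibitor of matrix metalloproteinases, held 1 match in 3604 bases (chr10:86348274-86348296, plus strand), where 25.3% of 1875 did. Both members of the pair carry these letters' complement, so the matches do not tell them apart.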

How the data were processed

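Small RNA of 2 libraries was analysed, with 3754895 own-strand counts in miRNA genes in replicate 1 and 5133949 in replicate 2, which were 52.6% and 51.6% of all reads. The authors deposited whole-number read counts per miRNA gene for each library, on build mm10 with annotation M4, per the file headers; for the aligner and counter, no name was given in the sources used here. The tables have 3 unnamed count columns, where the first equals the sum of the other 2 in every gene. They were read from this layout as either strand, own strand and opposite strand, and the own-strand column was used. Both members had 0 opposite-strand counts. The 4 leading lines of uncounted reads, with multimapping reads at 30.2% and 29.9%, stayed out of library sizes.

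Of 1973 genes, 1894 were named by identifier from GENCODE M21, which is on the same build. CPM used the own-strand total. For ratios, 0.5 was added to counts and libraries were scaled by TMM (edgeR 4.0.16 under R 4.3.3, factors of 1.05 and 0.955). Genes with at least 10 counts in total (373) entered an exact binomial test, two-sided, with the expected split set by TMM-scaled totals (scipy 1.17.1), Benjamini-Hochberg adjustment and a threshold of 0.05. A count of 0 allows 3 counts. Hairpins were folded with RNAfold 2.7.2. Alternatives were scaling by total counts or by DESeq2 1.42.0 size factors, other filters, pseudocounts, denominators, both strands and each library alone. On simulated counts for 366 genes of this comparison, 79 of 99 genes changed 2-fold and 91 of 98 changed 4-fold passed in the right direction, and 7 of 169 unchanged genes passed; simulated libraries differed by counting error only.

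The members and lists were chosen with earlier results of these data known. The named genes are the pair, the 5 genes nearest to each in level, the 3 highest members of the proliferation and differentiation lists, the 2 highest of the other lists, neighbouring pairs with at least 10 counts in each library, and genes with the same seed. The low genes of the differentiation list were named after their values were seen. Skeletal muscle genes of that list are named as a set, and Mir455 is named as a cartilage-linked gene beside Mir140. Apart from genes whose choice is stated where they appear, further genes are named only because of shared stretches of sequence or because that check lacked them. The labels name separate pups, so n = 2 counts animals, each with 1 library.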

Additional observations from a re-analysis of the deposited data

How the results depend on the processing

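The log2 ratio of Mir221 stayed below 0 and past the threshold under all 6 alternatives, from -0.93 to -0.80, with adjusted p from 8.70e-14 to 3.55e-10 (exact binomial test). That of Mir222 stayed below 0, from -0.51 to -0.37, with adjusted p from 0.0124 to 0.130. It passed the threshold only with total-count scaling (-0.51), which omits the TMM factors. Over all reads as the denominator the means were 35.0 CPM for Mir221 and 15.6 CPM for Mir222, because that denominator is larger. Without replicate 1 or without replicate 2 the mean of Mir221 ran from 46.0 to 87.9 CPM, that of Mir222 from 24.7 to 35.2 CPM and the Mir222 share of the pair from 28.6% to 35.0%; with 2 libraries such values always lie within 1 SD of the mean. No paired analysis was possible because the labels give 1 group. The depth of 127 to 132 counts limits Mir222 to the intervals given.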

Other observations

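The pair can also be placed among the other miRNA genes of the X chromosome. Of 120 listed genes there, 38 had at least 10 counts in total and 68 had 0 counts in both libraries. Their median log2 ratio of replicate 2 over replicate 1 was 0.0068, close to the 0.0059 over all 373 tested genes, and by the exact binomial test, adjusted over all tested genes, 9 were lower and 10 were higher in replicate 2, shares near the 23.3% and 25.7% over all tested genes. Mir221 had the lowest log2 ratio of the 38 at -0.80, ahead of Mir547 at -0.79, which had 14 and 10 counts, and Mir106a at -0.75, which had 198 and 147 counts (adjusted p = 4.87e-06, exact binomial test). Mir547 and Mir106a were chosen after their values were seen. By mean level 21 X-linked genes were above both members, led by Mir322 at 29178 ± 1772 CPM (SD, n = 2). The nearest other listed miRNA gene on the chromosome, Gm24824, lay 1676766 bases away and had 0 counts in both libraries.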
